A study of Homo sapiens with 17 samples.

Results

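LIN28A, LIN28B, BCL11A, HMGA2, IGF2BP1, IGF2BP2, IGF2BP3 and DPPA4 are genes whose levels mark embryonic, fetal or adult stages of development. These 8 genes, fixed by symbol, were all found among the 58302 gene identifiers of the count tables and among the 28285 of the tables in TPM, a unit scaled for gene length. They were followed in 17 RNA sequencing libraries, all of cells derived from H1, a line of human embryonic stem cells. The cells were endothelial cells sorted as positive for GATA2/eGFP, a green fluorescent reporter of the blood and endothelial transcription factor GATA2, and the cells they gave rise to after re-plating. All libraries descend from this 1 line and this 1 reporter.

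The endothelial cells had been derived without or with vitamin C. Freshly sorted endothelium gave 4 libraries in TPM, 2 without and 2 with vitamin C. A re-plating course gave 10 count libraries at 0, 24, 36, 48 and 60 h, with 1 library per condition and time, and the labels call the cells from 24 h on a mixture of endothelial and hematopoietic cells. The last 3 count libraries, all with vitamin C, were the adherent cells of 60 h, again labelled as a mixture, and suspended cells taken at 60 and 96 h, which the labels call hematopoietic. No label says that replicates were separate cultures, so p-values measure the spread between these libraries, which may be technical. For 2 of the 4 sorted libraries the title gives another vitamin C condition than the description, and the titles were used.

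The 13 count libraries held 6214675 to 11058345 counts, so that 1 count is 0.0904 to 0.161 CPM, the count scaled to the size of the library. Summed CPM of 10 endothelial markers was 6958 to 9723 in the course and adherent libraries, 1940 in suspended cells at 60 h and 886 at 96 h. The sum of 10 blood markers was 76.9 to 434 CPM in the course and adherent libraries, 2010 in suspended cells at 60 h and 3925 at 96 h, although PTPRC, the pan-leukocyte CD45 gene, reached no more than 4.70 CPM. POU5F1, NANOG and SOX2, which define pluripotent stem cells, were at or below 0.49 CPM in all 13, and POU5F1 was 1.15 to 14.6 TPM in the sorted cells. One sorted library, replicate 1 with vitamin C, stood apart: 10 proliferation genes summed to 486 TPM there and to 1650 to 1994 TPM in the other 3.

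LIN28A and LIN28B are RNA-binding proteins that block the maturation of let-7, a family of microRNAs that accumulate as cells differentiate. let-7 in turn binds the 3′ untranslated regions (UTRs) of genes active early in development and lowers their output, HMGA2, the IGF2BP genes and LIN28B itself being known examples. HMGA2 is an architectural chromatin protein of proliferating embryonic cells, and the IGF2BP proteins bind and stabilise messenger RNAs such as those of IGF2 and MYC. BCL11A silences fetal and embryonic globin genes in adult red cell precursors. DPPA4 is a chromatin protein of pluripotent and early embryonic cells. Mature let-7 was not measured in these libraries.

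The let-7 sequences are shown because their seed, bases 2 to 8 of the mature microRNA, is the part searched for in the 3′ UTRs below. In the RefSeq table for GRCh38.p14, 11 mature microRNAs carry the same seed, which is in capitals in these 4 members of the family.
let-7a-5p: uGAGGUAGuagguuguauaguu
let-7b-5p: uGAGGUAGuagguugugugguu
let-7g-5p: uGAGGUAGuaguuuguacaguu
miR-98-5p: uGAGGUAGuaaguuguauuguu

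LIN28 proteins are known to contact a GGAG motif in the loop of the let-7 hairpin precursor. Of 13 hairpins of these microRNAs read from the table, which leave out miR-4458, 9 held GGAG between the mature strands, or after the one annotated strand. The hairpins of let-7a-3, let-7b and miR-98 did not. For miR-4500, whose 1 annotated strand ends at base 70 of 76, only the bases after it were searched. The part before that strand was not read, so the search says nothing of its loop. A pair with the motif and 1 without it are shown, with GGAG in capitals. They lie at chr3:52268278-52268361 (minus strand), chr9:94176347-94176433 (plus strand) and chr22:46112749-46112822 (plus strand). A match is a description of these letters and not of binding.
let-7g hairpin: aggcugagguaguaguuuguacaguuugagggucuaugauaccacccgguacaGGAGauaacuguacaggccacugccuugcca
let-7f-1 hairpin: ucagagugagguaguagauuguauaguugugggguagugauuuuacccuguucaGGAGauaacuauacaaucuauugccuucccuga
let-7a-3 hairpin: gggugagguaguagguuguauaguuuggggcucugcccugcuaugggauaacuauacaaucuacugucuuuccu

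The sequence complementary to the seed, CTACCTC, was searched in the 3′ UTR of the principal coding transcript of each gene (GENCODE release 29, GRCh38). It was present in 6 of the 8 genes. LIN28B, HMGA2 and IGF2BP1 held 4 matches each, LIN28A, IGF2BP2 and IGF2BP3 held 1 each, and BCL11A and DPPA4 held none. Of 19122 genes with an annotated 3′ UTR, 8.57% held at least 1 match and 0.063% held 4 or more. Among genes with a 3′ UTR within 20% of the same length, the share with at least 1 match ran from 11.1% for the length of IGF2BP2 to 29.4% for that of IGF2BP1. The share with 4 or more was 0.053% for the length of HMGA2, 0.163% for LIN28B and 0.439% for IGF2BP1. The reverse complement of the motif, GAGGTAG, was found in 7.03% of all 3′ UTRs, in HMGA2 at 2 places and in none of the other 7 genes. For HMGA2 the count depends on the transcript: HMGA2-204, used here, has a 3′ UTR of 3003 bases, whereas HMGA2-210, with the longest annotated 3′ UTR of the gene (7421 bases), ends elsewhere and held no match.

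The target sites are shown as the bases up to and including the one opposite the first base of let-7, on the sense strand, with the 7-base match and a following A in capitals. For each gene it is the match with a following A nearest to the stop codon. The LIN28A site is at chr1:26427341-26427370, that of LIN28B at chr6:105078805-105078834, that of HMGA2 at chr12:65963293-65963320, that of IGF2BP1 at chr17:49051054-49051083, that of IGF2BP2 at chr3:185644220-185644249 and that of IGF2BP3 at chr7:23311795-23311824 (GRCh38). All 6 lie within 1 exon, in the 3′ UTR, and the last 2 genes are on the minus strand.
LIN28A site: ttggagtgcacagcctattgaaCTACCTCA
LIN28B site: ttcctttacccggttgcaaagtCTACCTCA
HMGA2 site: ggggcgccaacgttcgatttCTACCTCA
IGF2BP1 site: gcaatgctgtgtgcgaagtaaaCTACCTCA
IGF2BP2 site: cgagaaaaacacacagaagaagCTACCTCA
IGF2BP3 site: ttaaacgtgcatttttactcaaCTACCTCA

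**Figure D1:**
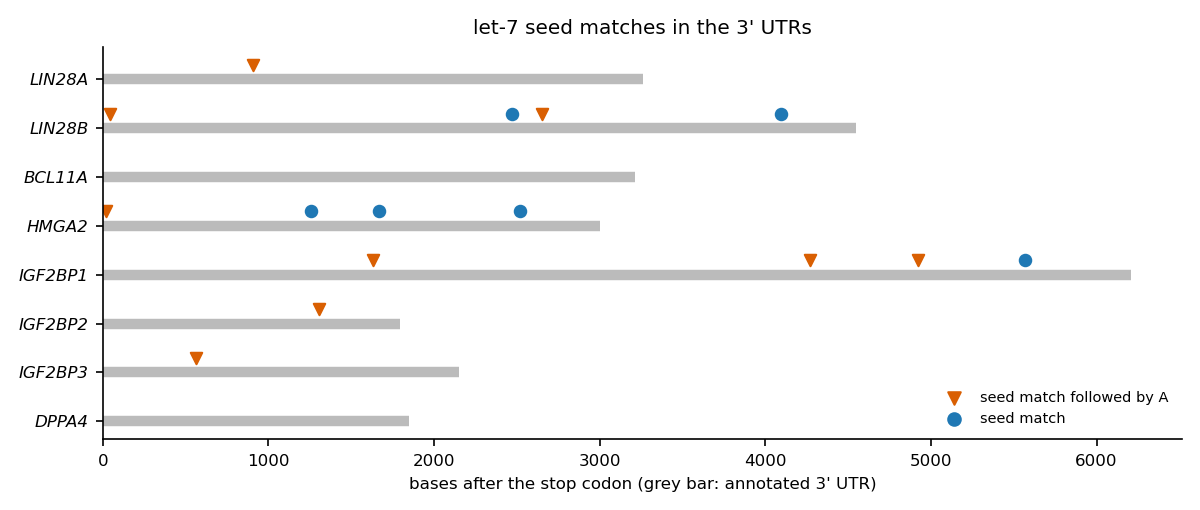
Matches to the let-7 seed along the 3′ UTR of each gene. The x axis is the distance from the stop codon in bases and the grey bar is the annotated 3′ UTR; triangles mark matches followed by A and circles the other matches. LIN28B, HMGA2 and IGF2BP1 carry 4 matches each, and BCL11A and DPPA4 carry none.

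LIN28A, at chr1:26410778-26429722, fell after re-plating in both conditions. Without vitamin C it measured 529.8 CPM at 0 h, 238 at 24 h, 166 at 36 h, 187 at 48 h and 115 at 60 h. With vitamin C it measured 453, 204, 152, 176 and 144 CPM at the same times. Both 0 h libraries were above all 8 later ones, and most of the fall had taken place by 24 h.

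LIN28B, its paralog at chr6:104936616-105083332, fell by 24 h and then regained part of its level. Without vitamin C it was 187 CPM at 0 h, then 86.6, 91.0, 120.2 and 123. With vitamin C it was 155 CPM at 0 h, then 96.1, 87.7, 108 and 124. Both 0 h values were above all later ones, and both 60 h values were above both 24 h values.

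DPPA4, at chr3:109326141-109337572 on the minus strand, showed the same early fall. It was 108 CPM at 0 h and 44.2, 48.0, 39.5 and 35.8 CPM later without vitamin C. With vitamin C it was 152 CPM at 0 h and 50.7, 40.1, 40.0 and 37.9 CPM later. From 24 h on the conditions overlapped, and no later library reached even the lower of the 0 h values.

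**Figure D2:**
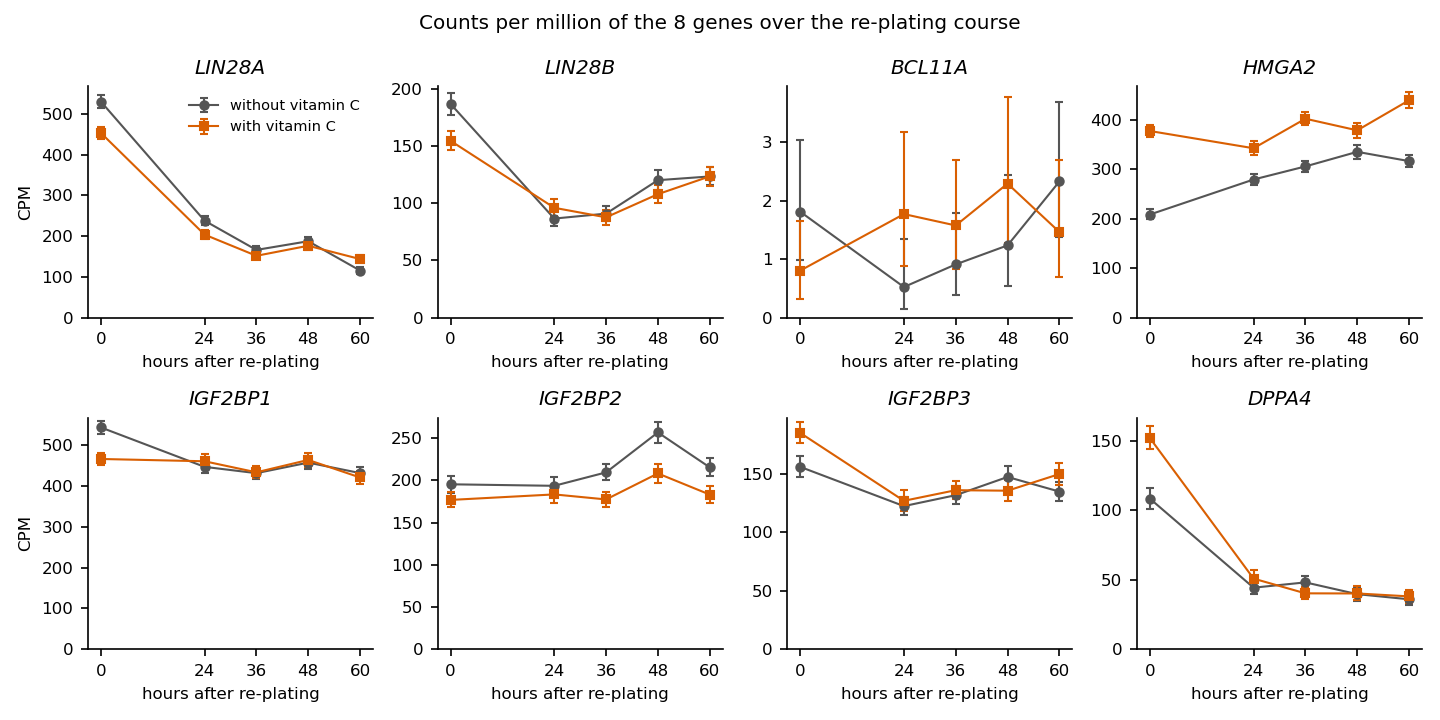
CPM of each gene (y axes, each from 0) against hours after re-plating, for the 5 libraries without vitamin C (grey circles) and the 5 with vitamin C (orange squares). Bars are exact Poisson 95% intervals of 1 library and cover counting error only. LIN28A, LIN28B and DPPA4 are highest at 0 h in both conditions, HMGA2 with vitamin C lies above HMGA2 without it at all 5 times, and BCL11A stays below 3 CPM.

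The change along the hours was tested for every gene with edgeR's quasi-likelihood test, as 1 straight line per condition on the log2 scale and per 60 h. LIN28A fell by 2.03 ± 0.30 (SE) without vitamin C (adjusted p = 0.00803) and by 1.59 ± 0.29 with it (adjusted p = 0.0314). DPPA4 fell by 1.53 ± 0.37 without vitamin C (adjusted p = 0.0472) and by 2.01 ± 0.35 with it (adjusted p = 0.0280). Thus 2 of the 8 genes were called in each condition, beside 4.28% of all 16276 genes tested without vitamin C and 1.78% with it. The other 6 did not pass: LIN28B had slopes of -0.51 ± 0.38 and -0.33 ± 0.39, HMGA2 of 0.66 ± 0.20 and 0.21 ± 0.18, and IGF2BP2 of 0.29 ± 0.19 and 0.13 ± 0.19, without and with vitamin C. The HMGA2 slope without vitamin C passed with DESeq2 (0.66, adjusted p = 0.0228) and not with edgeR (0.0928).

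Leaving out a 0 h library ended these calls in its own condition. Without the 0 h library without vitamin C, the slopes in that condition were -1.48 for LIN28A (adjusted p = 0.185) and -0.62 for DPPA4 (adjusted p = 0.638). Without the 0 h library with vitamin C, they were -0.72 for LIN28A (adjusted p = 0.499) and -0.70 for DPPA4 (adjusted p = 0.543). The LIN28A call with vitamin C was also lost without the 48 h (adjusted p = 0.0852) or 60 h (0.0977) library of that condition. The DPPA4 call with vitamin C was also lost without the 48 h library of either condition (adjusted p = 0.0593 without vitamin C left out, 0.0925 with vitamin C left out) or the 60 h library with vitamin C (0.0603). The DPPA4 call without vitamin C was also lost without the 36 h (0.0810), 48 h (0.120) or 60 h (0.110) library of that condition, or the 36 h (0.0587) or 48 h (0.0849) library with vitamin C. With the ranks of the times in place of the hours, the calls were lost for LIN28A with vitamin C (-1.47, adjusted p = 0.132) and for DPPA4 with (-1.85, 0.112) and without it (-1.41, 0.154).

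Since the fall came early, a comparison of 0 h with all later times was added after the data had been seen. In that fit DPPA4 fell by 1.60 ± 0.14 on the log2 scale (edgeR, adjusted p = 3.58e-05), LIN28A by 1.49 ± 0.19 (adjusted p = 0.000325) and LIN28B by 0.69 ± 0.15 (adjusted p = 0.00846). These 3 of 8 stand beside 20.5% of all genes called in either direction, so early change was common among all genes. The LIN28B call was lost without the 0 h library without vitamin C (-0.55, adjusted p = 0.197). From 0 to 24 h the sum of 10 mesenchymal markers also went from 2073 to 922 CPM without and from 2238 to 650 with vitamin C, and the proliferation sum from 2210 to 1791 and from 2097 to 1764; their part in these changes was not tested. IGF2BP3, at -0.31 ± 0.10, missed the threshold with edgeR (adjusted p = 0.0504) and passed with DESeq2 (adjusted p = 0.0261).

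From 24 to 60 h, with the 0 h pair left out, LIN28B rose by 0.96 per 60 h on the log2 scale without vitamin C (edgeR, adjusted p = 0.0279). With vitamin C the value was 0.64 (adjusted p = 0.144). LIN28A went the other way over these hours, falling by 1.47 without vitamin C (edgeR, adjusted p = 0.00861) and standing at -0.71 with it (adjusted p = 0.185). In this fit 1 of the 8 genes was called higher and 1 lower without vitamin C, beside 1347 and 1198 of all 15602 genes tested. With vitamin C 0 of the 8 were called, beside 1000 genes higher and 814 lower. The difference between the paralogs was not tested. Marker sums moved over the same hours. Without vitamin C the blood sum went from 87.3 CPM at 24 h to 113 at 60 h, the proliferation sum from 1791 to 616 and the mesenchymal sum from 922 to 1696. With vitamin C the blood sum went from 146 to 434 CPM, the proliferation sum from 1764 to 1125 and the mesenchymal sum from 650 to 623. The part of this in the changes was not tested, and in bulk samples fewer cells of a type and less RNA per cell cannot be told apart.

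HMGA2, at chr12:65824131-65966295, was the 1 gene of the 8 with a vitamin C difference past the threshold. Without vitamin C it measured 208 CPM at 0 h, then 279, 306, 335 and 316. With vitamin C it measured 377 CPM at 0 h, then 342, 402, 378 and 439. The conditions did not overlap, the lowest library with vitamin C being above the highest without.

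Tested over the 5 times with time as a factor, HMGA2 was higher with vitamin C by 0.43 ± 0.08 on the log2 scale (edgeR, adjusted p = 0.00870), and it was higher at 5 of 5 times. In this fit, for every gene, the 5 times stand in for replicates. A constant difference between the series with and without vitamin C, whatever its source, would be called alike. It cannot be told apart from vitamin C here, also with libraries left out. The log2 ratio was 0.85 at 0 h, 0.29 at 24 h, 0.40 at 36 h, 0.18 at 48 h and 0.47 at 60 h. This 1 call of 8 stands beside 5.87% of all genes tested. It held with each library left out in turn and was lost only when the term for time was dropped (0.42, adjusted p = 0.492). In the same libraries the sum of 8 epithelial markers was 489 to 525 CPM with vitamin C and 1058 to 1173 without it, led by KRT8 and KRT18. Of the 6 epithelial markers tested, 3 were lower with vitamin C and called, the keratins KRT8, KRT18 and KRT19. The other 3 were higher and not called. The blood sum was higher with vitamin C at all 5 times (434 against 113 CPM at 60 h). The mesenchymal sum was lower from 24 h on (623 against 1696 at 60 h). From 0 to 48 h the endothelial sum was higher with vitamin C (9588 against 8042 CPM at 24 h). At 60 h it was lower (8187 against 8892). Over the course 8 of 10 endothelial markers were higher with vitamin C, 3 of them called, and 2 were lower. All 10 proliferation genes were higher, 2 of them called. The part of these in the HMGA2 difference was not tested.

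**Figure D3:**
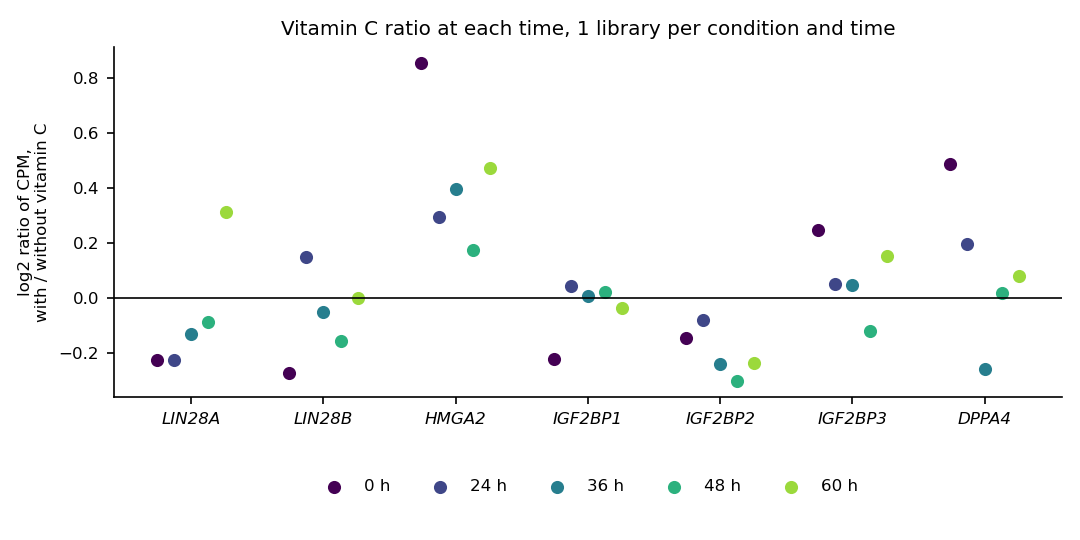
Log2 ratio of CPM with over without vitamin C (y axis) at each of the 5 times (colours) for the 7 genes other than BCL11A, each point being 1 library over 1 library. HMGA2 lies above 0 and IGF2BP2 below 0 at all 5 times; the other genes lie on both sides.

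None of the 3 IGF2BP genes was called along the hours. IGF2BP1, at chr17:48997412-49055650, was 543.6 CPM at 0 h and 432 to 457 later without vitamin C, and 466 at 0 h and 421 to 464 later with it. IGF2BP2, at chr3:185643739-185825056 on the minus strand, was 194 to 257 CPM over the 5 libraries without vitamin C and 177 to 208 with it. IGF2BP3, at chr7:23310209-23470467 on the minus strand, was 122 to 156 CPM without and 127 to 185 with vitamin C.

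IGF2BP2 was lower with vitamin C at 5 of 5 times, by 0.21 ± 0.06 on the log2 scale, which did not pass the test over all genes (edgeR, adjusted p = 0.0831). IGF2BP1 (-0.04 ± 0.06) and IGF2BP3 (0.07 ± 0.07) did not pass either. IGF2BP3 overlaps MALSU1, a gene on the opposite strand with up to 90.0 CPM. The strand setting of the counting is not given in the sources used here, so reads of the 2 genes may not be told apart.

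BCL11A, at chr2:60450520-60555154 on the minus strand, was near the limit of these libraries. It had 0.52 to 2.33 CPM over the course without vitamin C and 0.80 to 2.29 with it. In adherent cells it had 2.96 CPM (24 counts), in suspended cells 2.44 at 60 h (17 counts) and 2.62 at 96 h (29 counts). Each library's interval overlapped that of the next in order, but libraries further apart did not all overlap. The interval of the 24 h library without vitamin C (4 counts, 0.14 to 1.34 CPM) lay below those of adherent cells (1.89 to 4.40 CPM) and of suspended cells at 60 h (1.42 to 3.91 CPM) and 96 h (1.76 to 3.77 CPM). These are single libraries with few counts, and no fit called BCL11A.

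The difference in slope between conditions was not past the threshold for any of the 8 genes (edgeR). The values ran from -0.48 ± 0.52 for DPPA4 to 0.44 ± 0.43 for LIN28A, beside BCL11A at 0.61 with an SE larger than that value. Over all 16276 genes 0% passed, with 473 at an unadjusted p under 0.05, and DESeq2 called 11. A difference in slope with vitamin C was thus not shown for these genes, nor was its absence.

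Compared between genes per kilobase of exonic length, LIN28A led at 0 h with 132 CPM per kb without and 113 with vitamin C. IGF2BP1 followed, with 59.7 and 51.2. By 60 h of the course LIN28A had dropped to the third place (28.8 and 35.8 CPM per kb), behind IGF2BP1 (47.4 and 46.2) and IGF2BP2 (45.5 and 38.7). BCL11A was last in all 13 libraries, at 0.021 to 0.116 CPM per kb. Exonic length covers all annotated exons of a gene, 4008 bases for LIN28A, 9109 for IGF2BP1 and 15403 for HMGA2. Exons that the cells do not use thus lower the value of a gene. In sorted endothelium, in TPM, the order differed from that at 0 h. Median TPM was 232 for LIN28A, 200 for HMGA2, 145 for IGF2BP2 and 93.8 for IGF2BP1.

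Suspended cells carried much more LIN28 and much less HMGA2 than the adherent cells of the same time. LIN28A was 425 CPM in suspended and 91.7 in adherent cells, 4.63-fold higher (log2 ratio 2.21, 95% interval 2.10 to 2.33). LIN28B was 214 and 101.4 CPM, 2.11-fold higher (log2 ratio 1.07, 0.95 to 1.20). HMGA2 was 109 and 485 CPM, 4.46-fold lower in suspended cells (log2 ratio -2.15, -2.27 to -2.04). The LIN28A level of suspended cells thus was close to the 453 CPM of the 0 h cells with vitamin C, and adherent cells had the lowest LIN28A of the 13 libraries and the highest HMGA2.

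Each of these groups is 1 library, so no test was made and the exact intervals cover counting error only. With 7 genes above 5 CPM, 2 were at least 2-fold higher and 1 at least 2-fold lower, beside 12.3% and 14.6% of all 12705 genes compared. The median log2 ratio of all these genes was 0.14, and with TMM scaling, which moved it to 0.01, the ratios were 2.08 for LIN28A and -2.27 for HMGA2. LIN28B was then at 0.95, under 2-fold, so that 1 gene was at least 2-fold higher and 1 lower. IGF2BP1 was 558 and 396 CPM (log2 ratio 0.49, 0.43 to 0.56). IGF2BP2 was 114 and 205 CPM, lower in suspended cells (-0.85, -0.98 to -0.73).

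IGF2BP3 had 131 CPM in suspended and 119 in adherent cells (log2 ratio 0.13, 0.00 to 0.27), near the median of all genes. DPPA4 had 35.5 and 40.2 CPM, and its interval of the log2 ratio included 0 (-0.18, -0.42 to 0.07). Over the same 2 libraries all 10 endothelial markers were at least 2-fold lower in suspended cells, all 9 compared blood markers at least 2-fold higher and 6 of 10 proliferation genes at least 2-fold higher. The part of cell composition in these ratios was not tested.

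**Figure D4:**
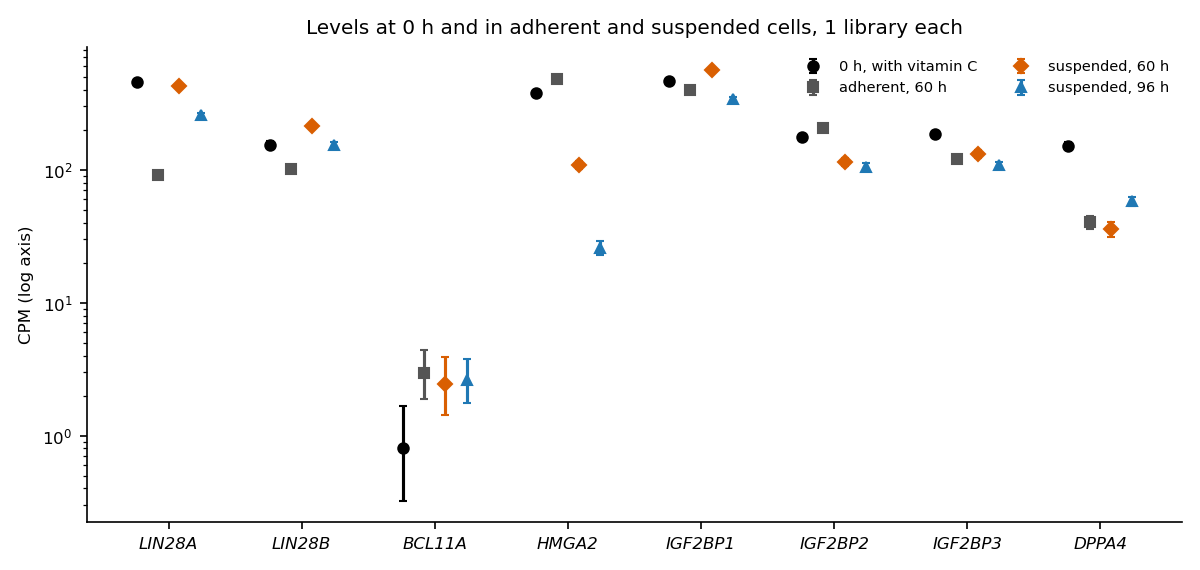
CPM (log axis) of the 8 genes in the 0 h library with vitamin C, in adherent cells at 60 h and in suspended cells at 60 and 96 h, 1 library each, with exact Poisson 95% intervals. LIN28A is 91.7 CPM in adherent and 425 in suspended cells at 60 h, while HMGA2 goes from 485 CPM in adherent cells to 109 and 25.9 in suspended cells.

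In suspended cells HMGA2 was lower again at 96 h, at 25.9 against 109 CPM, 4.21-fold (log2 ratio -2.05, -2.27 to -1.88). It was the 1 gene of 7 above 5 CPM at least 2-fold lower, beside 10.5% of all 12405 genes compared, and none was at least 2-fold higher, beside 5.54%. LIN28A was 256 against 425 CPM (-0.73, -0.81 to -0.66), LIN28B 154 against 214 (-0.47, -0.57 to -0.37) and IGF2BP1 341 against 558 (-0.71, -0.77 to -0.64). Of the 7 genes above 5 CPM, DPPA4 alone had a higher level at 96 h, 57.9 against 35.5 CPM (0.70, 0.49 to 0.92).

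The median of all genes compared was -0.19 at 96 h against 60 h and 0.00 with TMM scaling, and relative to it the LIN28B and IGF2BP1 ratios were smaller (-0.29 and -0.53). IGF2BP2 was -0.11 (-0.25 to 0.02) and turned to 0.06 with TMM scaling, and IGF2BP3 was -0.28 and -0.10. Between these libraries the 10 erythroid markers went from 985 to 11510 CPM in sum, all 10 at least 2-fold higher. Of the 10 endothelial markers 7 were at least 2-fold lower and 1 at least 2-fold higher. Whether the HMGA2 difference follows the remaining endothelial RNA was not tested.

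In freshly sorted endothelium, before re-plating, no gene was called for vitamin C (limma on log2(TPM + 1), 0% of 14421 genes tested). LIN28B was 61.1 and 53.3 TPM without vitamin C and 24.6 and 36.3 with it. IGF2BP1 was 107.5 and 118 TPM without and 64.8 and 80.0 with it, IGF2BP3 109.8 and 82.7 without and 72.0 and 57.2 with it, and IGF2BP2 165 and 148 without and 141 and 92.9 with it. For these 4 of the 8 genes both libraries with vitamin C lay below both without it, beside 19.3% of all genes.

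The differences in log2(TPM + 1), a scale that understates the change of low genes, were -0.91 ± 0.31 for LIN28B, -0.64 ± 0.25 for IGF2BP1, -0.56 ± 0.28 for IGF2BP3 and -0.45 ± 0.29 for IGF2BP2 (limma, adjusted p = 0.9998 for each). Without replicate 1 with vitamin C, the library of low proliferation genes, they were -0.64, -0.49, -0.73 and -0.74. LIN28A was 229 and 279 TPM without and 128 and 235 with vitamin C, and its difference of -0.54 became -0.10 without that library. With groups taken from the descriptions the LIN28B, IGF2BP1 and LIN28A differences turned to 0.18, 0.22 and 0.58, so these directions depend on which label holds.

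HMGA2 and DPPA4 separated by replicate number in sorted cells. HMGA2 was 313 and 276 TPM in the replicate 1 libraries and 107 and 123 in the replicate 2 libraries. DPPA4 was 101.6 and 119.5 TPM in replicate 1 and 69.1 and 71.9 in replicate 2. The vitamin C difference of HMGA2 was 0.02 ± 0.62 by the titles (limma, adjusted p = 0.9998), and by the descriptions, which put both libraries of a number in 1 condition, it was -1.35 (adjusted p = 0.0397). The higher HMGA2 with vitamin C in the course had no counterpart past the spread between the sorted libraries. BCL11A was 0.80 to 3.81 TPM.

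**Figure D5:**
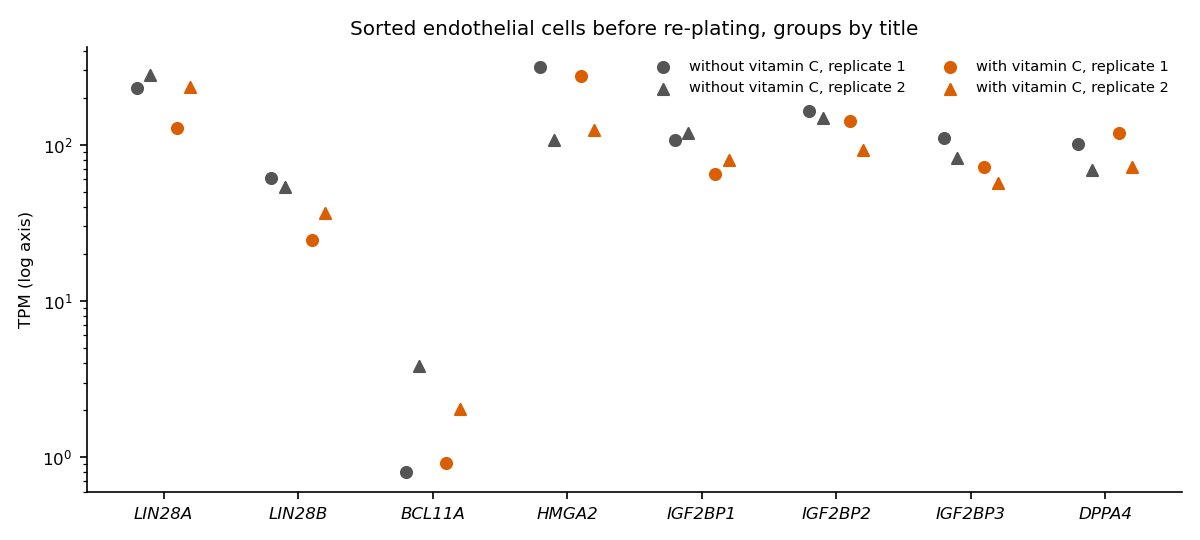
TPM (log axis) of the 8 genes in the 4 libraries of sorted endothelium; grey is without and orange with vitamin C by the titles, circles are replicate 1 and triangles replicate 2. LIN28B, IGF2BP1, IGF2BP2 and IGF2BP3 are lower in both orange points, and HMGA2 separates by replicate number.

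Of 19 genes that make or degrade let-7 or carry out its silencing, fixed with the other lists for this work, none was called for vitamin C or along the hours. Over all genes 5.87% were called for vitamin C, and 4.28% without and 1.78% with it along the hours. With so few genes, the lack of calls does not show that they were unchanged. Between 0 h and later times 5 of 19 were called, 2 higher and 3 lower, beside 20.5% of all genes, and the list median was -0.01 against 0.00 over all genes. HNRNPA1, an RNA-binding protein that binds let-7 precursors, fell by 0.80 ± 0.10 on the log2 scale (edgeR, adjusted p = 0.000247). TRIM71, the let-7 target and LIN28 partner known as LIN41, was 163 CPM in suspended cells at 60 h, 106 in adherent cells and 61.5 in suspended cells at 96 h (log2 ratio of the last to the first -1.40, -1.54 to -1.27).

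Of 8 genes listed as host transcripts of let-7 loci, 4 were tested. RTCA is on this list but holds none of the let-7 hairpins read above, so its values say nothing of let-7. None was called for vitamin C, beside 5.87% of all genes. RTCA and MIR100HG were called higher after 0 h, beside 20.5% of all genes called in either direction. RTCA rose by 0.55 ± 0.12 on the log2 scale (edgeR, adjusted p = 0.00721), a call lost without the 0 h library of either condition (0.128 without and 0.0648 with vitamin C). MIR100HG, with a call resting on low counts, had 0 to 5.31 CPM over the 13 libraries. H19 and MIRLET7BHG had no counts in any of the 13 libraries. HUWE1, whose introns hold let-7f-2 and miR-98, was 336 to 492 CPM and was not called. The levels of these hosts say nothing of the mature microRNA.

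Of 26 other known let-7 targets, 6 were called for vitamin C over the course, 4 higher and 2 lower, beside 5.87% of all genes, and the median was 0.08 against 0.01 over all genes. MYCN rose by 0.67 ± 0.13 (edgeR, adjusted p = 0.00927) and NR6A1, an embryonic nuclear receptor gene, by 0.44 ± 0.09 (adjusted p = 0.00928), and both calls held with each library left out. The other calls depended on single libraries. CCND1 (higher) lost its call without the 24 or 36 h library of either condition (adjusted p = 0.0761 to 0.0929) and IGDCC3 (lower) without the 36 or 48 h library of either (0.0597 to 0.0690). CDC25A (higher) lost its call without any 1 of the 10 libraries (0.0515 to 0.124), and INSR (lower) without any 1 of 9 libraries, the exception being vitamin C at 0 h (0.0501 to 0.117). In suspended against adherent cells 8 of 25 were at least 2-fold higher and 4 at least 2-fold lower, beside 12.3% and 14.6% of all genes. MYC was 225 against 26.1 CPM (log2 ratio 3.08, 2.90 to 3.32) and MYCN 172 against 67.8 (1.34, 1.20 to 1.49), while IGDCC3 was 18.1 against 100.5 (-2.44, -2.76 to -2.20).

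Outside the 8 genes, the median log2 value for vitamin C over the course was 0.09 over 26 tested genes with at least 3 matches, 0.01 over 1265 with 1 or 2, and 0.01 over 11522 with none. In suspended against adherent cells the medians were -0.01 over 25 genes, 0.07 over 1111 and 0.14 over 9910. These are descriptions without a test.

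IGF2, the growth factor whose messenger RNA names the IGF2BP family, rose steeply while none of the IGF2BP genes was called. It rose from 74.1 CPM at 0 h to 1672 at 60 h without vitamin C and from 83.3 to 892 with it. The slopes were 4.47 ± 0.36 (edgeR, adjusted p = 0.000882) and 3.44 ± 0.36 (adjusted p = 0.00440) on the log2 scale per 60 h, and both calls held with each library left out. In suspended cells IGF2 was 132 CPM at 60 h, against 1053 in adherent cells (log2 ratio -3.00, -3.10 to -2.90).

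Of 11 imprinted and fetal growth genes, 9 were tested, and 2 were lower with vitamin C over the course and none higher, beside 5.87% of all genes called. For MEST, an imprinted gene, the log2 difference was -0.59 ± 0.09 (edgeR, adjusted p = 0.00190), and the call held with each library left out. DLK1, a fetal membrane protein of the Notch ligand family, was 648 CPM in suspended cells at 60 h and 55.2 in adherent cells (log2 ratio 3.54, 3.41 to 3.70), and 1865 at 96 h. Of 10 messenger RNAs known to be bound by IGF2BP proteins, 9 were tested, and CCND1 alone was called for vitamin C, beside the same 5.87%.

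Of 22 genes that act with BCL11A or regulate it, 21 were tested, and 2 were higher and none lower with vitamin C over the course, beside 5.87% of all genes called. MYB rose by 0.51 ± 0.09 (edgeR, adjusted p = 0.00416) with the call holding for each library left out, and GATA1 by 2.10 ± 0.43 (adjusted p = 0.0116). The GATA1 call was lost with DESeq2 (adjusted p = 0.109) and without the 36 or 48 h library of either condition or the 60 h library with vitamin C, with adjusted p of 0.0530 to 0.0871. In suspended against adherent cells 4 of 21 were at least 2-fold higher and 1 at least 2-fold lower, beside 12.3% and 14.6% of all genes. SOX6, a partner of BCL11A in globin silencing, was the lower one, at 3.31 against 31.8 CPM (log2 ratio -3.09, -3.95 to -2.65). KLF1, the erythroid activator of BCL11A, was 93.7 CPM in suspended and 1.72 in adherent cells at 60 h (log2 ratio 5.40, 5.01 to 6.64) and 225 in suspended cells at 96 h.

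The highest globins at 96 h were embryonic and fetal ones, beside lower levels of adult ones. In suspended cells HBE1, the embryonic beta-like globin, went from 225 CPM at 60 h to 3488 at 96 h. HBG2, a fetal gamma globin, went from 307 to 4715 CPM and HBG1 from 64.0 to 1129, although reads of these near-identical copies may be split between them. HBD, the delta globin of adult cells, was 177 and 268 CPM, above HBG1 at 60 h and below it at 96 h. HBA1, an alpha globin of fetal and adult cells, was 28.2 and 270.3 CPM, and HBB, the adult beta globin, 3.16 and 5.34 CPM. All 8 compared globins were at least 2-fold higher in suspended than adherent cells at 60 h.

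Of 17 pluripotency genes, 8 passed the filter on low counts, so they are not all of the list. Between 0 h and later times 5 of these 8 were lower and none higher, beside 20.5% of all genes. DNMT3B, the de novo DNA methyltransferase of early cells, fell by 1.35 ± 0.13 on the log2 scale (edgeR, adjusted p = 5.79e-05). L1TD1, an RNA-binding protein of stem cells with 0 to 9 counts in each later library, dropped by 5.57 ± 0.61 (edgeR, adjusted p = 0.000116), a fitted value that depends on the counts near 0. In suspended cells at 60 h DNMT3B was 274 CPM, against 102 in adherent cells (log2 ratio 1.43, 1.31 to 1.55).

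The genes most like each member over the 13 count libraries were ranked by Pearson r of log2(TMM-scaled CPM + 0.5). LIN28A was most like DNMT3B (r = 0.967), followed by NUCKS1 (0.953) and PAPOLA (0.946). LIN28B was most like RAC3 (0.977), HMGA2 like PTPRB, the endothelial phosphatase VE-PTP (0.993), and IGF2BP2 like RUSC2 (0.972). DPPA4 was most like XIRP1 (0.951), IGF2BP1 like CERS6 (0.928) and IGF2BP3 like BIRC2 (0.888). BCL11A, under 5 CPM, was left out. The libraries share cells, times and depth, so these values describe likeness over 13 libraries that are not independent.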

How the data were processed

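The authors deposited 1 table per library: raw read counts for 13 libraries and values read as TPM for 4. The submitters' processing notes list an aligner, HISAT2 (2.0.4), with HTSeq (0.6.0), SAMtools (1.3.1) and DESeq (1.18.1), beside hg38 and GRCh38 as builds; they give no roles. The annotation, strand setting and making of the TPM are not given in the sources used here. The TPM tables sum to 995020 to 996531, and their log2 ratio to the counts fell with exonic length (slope -0.693 over 10006 genes). Their depth is unknown, so they were tested with limma 3.58.1, with trend, for genes at 1 TPM or more in 2 libraries or more. Counts were tested with edgeR 4.0.16 (TMM, filterByExpr, R 4.3.3). All tests were two-sided, p-values were adjusted by the Benjamini-Hochberg method over every gene tested, and the threshold was 0.05. The fits were first run on simulated data whose spread was fixed and not estimated from these libraries. That run checks the code and not the error rates here. Ratios of single libraries had 0.5 CPM added, for genes at 5 CPM or more in the higher library, with exact 95% intervals. Such intervals cover counting error only, since PCR copies of a molecule cannot be told apart here.

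The 8 genes, the lists and the tests were chosen with earlier results of these data known. From each list up to 4 genes with the smallest p over the course and up to 4 with the largest ratio in each pair could be named, beside IGF2, H19, MYC, HBE1, HBG1, HBG2, POU5F1, NANOG and SOX2. CDC25A, INSR, HBB, PTPRC and MIRLET7BHG were named after their values were seen. The 3′ UTR rule (the APPRIS principal transcript, then the longest 3′ UTR) was set after a first rule, the longest 3′ UTR alone, had been seen, as was the comparison of 0 h with later times.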

Additional observations from a re-analysis of the deposited data

How the results depend on the processing

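Over the 8 genes, 701 alternative values were computed. Of these, 626 were classed as unchanged, 43 as changed in sign, and 8 ratios of single libraries as moved with TMM scaling. With the sign kept, 22 lost and 2 gained a call. Among the 43, the LIN28B slope without vitamin C (0 h pair left out) and sorted HMGA2 (by the descriptions) also gained a call. Among the 8, IGF2BP2 at 96 h against 60 h also changed sign. The LIN28B ratio of suspended to adherent cells, under 2-fold with TMM scaling, was classed as unchanged. The cause of each change was not tested, beyond fewer libraries or genes where an alternative leaves them out. For vitamin C over the course 955 genes were called, 1591 with no low count filter, 20 with no term for time and 505 to 1209 with 1 library left out. Along the hours with vitamin C 289 were called, 712 with DESeq2, 438 with no filter, 1814 without the 0 h pair, 92 with time ranks and 9 to 680 with 1 library left out. Without vitamin C 697 were called, 1284 with DESeq2, 2545 without the 0 h pair and 151 to 1097 with 1 library left out. For the difference in slope DESeq2 called 11 and the fit without the 0 h pair 1. Between 0 h and later times 3343 were called and 894 to 3758 with 1 library left out. In sorted cells none was called, 0 to 1 with 1 library left out and 156 with groups by the descriptions. At 96 h against 60 h 1995 genes were past 2-fold and 1224 with 5 CPM added.

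Signs changed as follows (log2). Without the 0 h pair, IGF2BP1 for vitamin C was 0.005. The slopes with vitamin C were then 0.639 for LIN28B, -0.141 for BCL11A and 0.301 for IGF2BP3, and without it 0.958 for LIN28B and 0.281 for IGF2BP3. The differences in slope were then -0.32 for LIN28B, -3.559 for BCL11A, 0.111 for HMGA2, -0.158 for IGF2BP1 and 0.021 for IGF2BP3. By the descriptions, sorted LIN28A was 0.578, LIN28B 0.175, BCL11A 1.044, HMGA2 -1.35, IGF2BP1 0.218 and DPPA4 -0.638. With TMM scaling IGF2BP2 at 96 h against 60 h was 0.064.

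With 1 library left out, vitamin C values ran from -0.055 to 0.595 for BCL11A, -0.069 to 0.006 for IGF2BP1, -0.00034412 to 0.205 for DPPA4 and -0.155 to 0.429 for MYC. Slopes with vitamin C ran from -0.725 to 0.627 for LIN28B, -0.15 to 1.748 for BCL11A and -0.526 to 0.294 for IGF2BP3. Slopes without it ran from -0.895 to 0.95 for LIN28B, -0.811 to 3.399 for BCL11A, -0.158 to 0.273 for IGF2BP3 and -4.964 to 10.874 for HBG1. Differences in slope ran from -0.113 to 1.312 for LIN28A, -1.279 to 1.13 for LIN28B, -2.408 to 1.815 for BCL11A, -0.059 to 0.266 for IGF2BP1, -0.569 to 0.394 for IGF2BP3 and -1.4 to 0.828 for DPPA4. BCL11A between 0 h and later times ran from -0.508 to 1.151. In sorted cells BCL11A ran from -0.997 to 0.047, HMGA2 from -0.757 to 0.787 and DPPA4 from -0.218 to 0.507; the lone library of a group is then assumed to vary like the other group.

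The replicate number of the sorted libraries is not said to mark a shared culture; the deviations of same-numbered libraries had r = 0.565 across 14421 genes. With the replicate block 0 genes were called, and the log2 differences were unchanged (LIN28B -0.91, adjusted p = 0.568). Depth limits BCL11A, with 4 to 29 counts a library, and no depth is known for the TPM.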

Other observations

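MYC, a let-7 target whose messenger RNA is also bound by IGF2BP proteins, had slopes of opposite sign in the conditions of the course. Without vitamin C it was 60.2 CPM at 0 h, then 44.9, 37.9, 31.0 and 30.1. With vitamin C it was 23.3 CPM at 0 h, then 45.5, 38.7, 51.2 and 59.6. The slopes per 60 h on the log2 scale were -1.05 ± 0.24 (edgeR, adjusted p = 0.0401) and 1.23 ± 0.26 (adjusted p = 0.0445). The difference in slope was 2.28 ± 0.35, with an adjusted p of 1 in edgeR and 0.000106 in DESeq2, and each slope lost its call without any of 8 of the 10 single libraries (adjusted p up to 0.433 with and 0.271 without vitamin C). In suspended cells MYC was 225 CPM at 60 h and 308 at 96 h, above all course libraries.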
